A study of Homo sapiens with 8 samples.

Results

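The enhancers of chromosome 3 were described by arm in 4 human medulloblastoma (MB) cell lines. They were chosen by position alone, as the stitched enhancers on chromosome 3 that end below 87000000 on the short arm (3p) or start above 94000000 on the long arm (3q) of GRCh38. The rule found 6153 enhancers, 2784 on 3p and 3369 on 3q, of 88550 in all 4 lines. A further 245 enhancers of the chromosome lay between these limits and were left out. The strongest long arm loci described below were selected on their measured H3K27Ac signal, and the chromosome itself was chosen because its input density was raised in UW228, so these values are given as descriptions with no test.

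H3K27Ac, an acetylation mark of active enhancers and promoters, was mapped by ChIP-seq in MB002, D425 and HD-MB03, which are Group 3 medulloblastoma (G3-MB) lines, and in UW228, which GEO labels as SHH subtype and which served as the non-G3 line. MB002 and HD-MB03 were grown in serum-free Tumor Stem Media with growth factors, whereas D425 and UW228 were grown in DMEM with fetal bovine serum. None of the lines was treated, and each had 1 H3K27Ac library and 1 input library. Since there was 1 library of each kind per line, no difference between lines could be set against a spread between replicates, and the values describe these libraries. UW228 was the only line of its subtype, so subtype and line cannot be told apart. The values of UW228 were also made at a later date than those of the other lines, as the headers record.

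An enhancer is a stretch of DNA that raises transcription of genes on the same chromosome, and ROSE joins neighbouring H3K27Ac peaks into stitched enhancers and calls those of highest summed signal super-enhancers (SEs). Input is sonicated chromatin sequenced without antibody, so its density along the genome follows the number of DNA copies, how easily the chromatin is sheared and how well reads can be mapped. Gain of the distal long arm of chromosome 3 is well known in squamous carcinomas, where it carries *TP63*, *SOX2* and *PIK3CA*, while the short arm carries several tumour suppressor genes. *TP63* encodes p63, a transcription factor of stratified epithelium.

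The labels were checked against markers of both subtypes. Of 8 G3-MB markers, 7, 6 and 5 had an enhancer in MB002, D425 and HD-MB03, respectively, and 4 had an enhancer in UW228, where no enhancer was listed for *OTX2*, *CRX*, *NRL* or *GABRA5*. An SE was called at 3, 3 and 2 of the G3-MB markers in MB002, D425 and HD-MB03 and at none of them in UW228. Of 8 SHH markers, 7 had an enhancer in UW228, none of them an SE, and 6, 4 and 5 had one in MB002, D425 and HD-MB03. The SHH counts thus do not set UW228 apart clearly. Most genes have an enhancer near them, as 65.6% of the protein-coding genes of chromosome 3 did in UW228. No line had an enhancer for *ATOH1*, a defining gene of granule cell precursors. In HD-MB03, 3 of the 8 SHH markers had an SE.

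Sequences were taken from 5 places on the long arm that the results below return to. The start of *TP63* lay in an enhancer of D425 (rank 5618) and of UW228 (rank 2003), and its promoter, read from RefSeq at chr3:189631139-189631438 on the plus strand, held neither of the motifs searched there. The other UW228 sequences came from GRCh38, plus strand. They were the 300 bases with the most AP-1 motifs in the SE at *TPRG1* (chr3:189327134-189327433), the middle of the strongest enhancer of the long arm made of 1 peak (chr3:177904795-177905094) and the middle of a peak inside *ST6GAL1* (chr3:187062887-187063186). The promoter of *IMPG2*, from RefSeq at chr3:101320526-101320825 on the minus strand, lay in an SE of HD-MB03 and in typical enhancers of MB002 and D425. Capitals mark the AP-1 motif TGANTCA and the TEAD motif GGAATG on either strand in the sequences of UW228. In the *IMPG2* promoter the OTX and CRX motif TAATCC and the E-box CAGCTG were searched and not found.
TP63 promoter: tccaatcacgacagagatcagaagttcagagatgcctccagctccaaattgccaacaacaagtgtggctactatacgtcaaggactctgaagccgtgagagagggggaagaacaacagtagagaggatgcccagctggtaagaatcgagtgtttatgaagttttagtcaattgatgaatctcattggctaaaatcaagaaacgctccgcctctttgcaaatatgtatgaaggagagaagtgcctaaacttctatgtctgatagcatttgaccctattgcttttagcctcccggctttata
TPRG1 enhancer: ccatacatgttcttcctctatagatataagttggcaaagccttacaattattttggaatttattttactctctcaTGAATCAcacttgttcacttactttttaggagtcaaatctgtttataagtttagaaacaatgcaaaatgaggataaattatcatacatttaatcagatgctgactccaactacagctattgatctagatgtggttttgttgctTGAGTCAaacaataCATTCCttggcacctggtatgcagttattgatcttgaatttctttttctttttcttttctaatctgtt
UW228 peak of rank 508: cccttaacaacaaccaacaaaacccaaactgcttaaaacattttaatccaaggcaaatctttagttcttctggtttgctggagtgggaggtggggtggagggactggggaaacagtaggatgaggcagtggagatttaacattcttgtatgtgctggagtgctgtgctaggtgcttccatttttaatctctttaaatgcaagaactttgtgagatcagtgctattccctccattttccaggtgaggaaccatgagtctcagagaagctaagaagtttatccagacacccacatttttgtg
ST6GAL1 peak of rank 1177: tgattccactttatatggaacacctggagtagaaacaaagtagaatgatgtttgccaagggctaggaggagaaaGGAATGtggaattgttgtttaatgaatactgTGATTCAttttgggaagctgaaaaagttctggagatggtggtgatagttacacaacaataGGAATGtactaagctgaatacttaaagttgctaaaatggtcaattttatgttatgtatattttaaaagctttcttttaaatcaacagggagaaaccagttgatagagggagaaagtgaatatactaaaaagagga
IMPG2 promoter: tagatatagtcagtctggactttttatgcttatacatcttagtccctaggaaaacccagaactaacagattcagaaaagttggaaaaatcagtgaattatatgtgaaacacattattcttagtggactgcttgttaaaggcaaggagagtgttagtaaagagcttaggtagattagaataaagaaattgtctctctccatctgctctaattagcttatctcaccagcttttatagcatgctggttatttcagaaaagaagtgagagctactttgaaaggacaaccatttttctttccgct

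The TPRG1 window held 2 AP-1 motifs and 1 TEAD motif, and the *ST6GAL1* peak held 1 AP-1 motif and 2 TEAD motifs. The peak of rank 508 held neither of these motifs. The TPRG1 window was chosen for its AP-1 motifs, so their number there is no finding. A further UW228 peak middle that was read, of rank 634, held neither motif and is not printed. The promoters of *SEMA3F* and *HES1* and the middles of 9 peaks of the G3-MB lines were also read, and none of them held the OTX and CRX motif. That motif was not searched in the UW228 sequences, and its letters TAATCC do stand in those of rank 508 and rank 634. Of 35116 RefSeq promoters of the same length, 7.71% held the AP-1 motif, 14.03% the TEAD motif, 6.36% the OTX and CRX motif and 17.9% the E-box. Promoters are an unlike background for the peak middles. Among the middles of chromosome 3 enhancers made of 1 peak, 23.8% in UW228 held AP-1 and 19.8% TEAD. The OTX and CRX motif was held by 20.7% to 24.8% of those of the G3-MB lines. A match is a description of the letters and does not show that a factor was bound.

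In UW228, the input of 3q enhancers was higher than that of 3p enhancers, whereas the arms of each G3-MB line were close to each other. To compare input between lines, the input per base pair of each enhancer was set against the median of its own line, so that a relative input density of 1 is that of the typical enhancer. On 3p, the median relative input density was 0.897 in D425, 0.967 in MB002, 0.991 in HD-MB03 and 0.866 in UW228. On 3q it was 0.886 in D425, 0.950 in MB002, 0.996 in HD-MB03 and 1.19 in UW228. Thus the ratio of 3q to 3p was 1.37 in UW228 and 0.982, 0.988 and 1.01 in MB002, D425 and HD-MB03. In UW228 the quartiles of 3q, 0.869 and 1.76, lay far apart compared with those of 3p, 0.665 and 1.08.

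The rise in UW228 began inside the long arm rather than at the centromere. The single split of the 3q enhancers that best separated their log2 relative input density fell between enhancers centred at 155391503 and 155872523, and it accounted for 35.8% of the variance along the arm. The best split of either arm in the other lines, and of 3p in UW228, accounted for 0.476% to 1.59%. The 459 enhancers of UW228 on the centromere side, here called 3q proximal, had a median relative input density of 0.921, and the 394 on the telomere side, called 3q distal, had a median of 1.77. The ratio of distal to proximal was 1.92 in UW228, and it was 1.03 in D425, 1.01 in MB002 and 1.01 in HD-MB03 at the same position. The position was found from the input of UW228, so the contrast of the 2 stretches in that input follows from how they were defined.

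**Figure D1:**
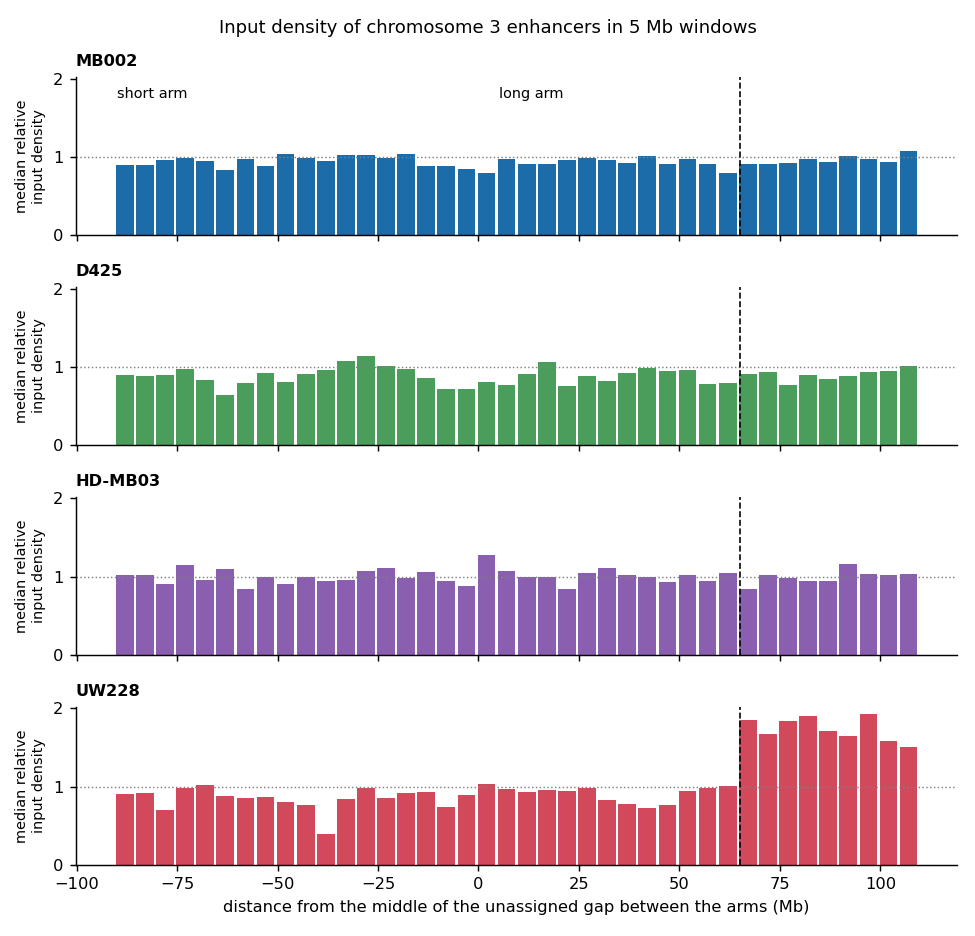
Median relative input density of enhancers (y axis, 1 is the median of the line) in 5 Mb windows along chromosome 3, against the distance in Mb from the middle of the gap between the arms (x axis), with a panel for each line. The dashed line marks the input step of UW228, to the right of which all windows of UW228 stand at 1.505 or above while those of the G3-MB lines stay near 1.

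The step was also seen in windows of 5 Mb. The 12 windows of 3q proximal in UW228 had medians of 0.729 to 1.01, and the 8 windows wholly in 3q distal had medians of 1.505 to 1.92. The window that holds the step had a median of 1.86. All 8 distal windows of UW228 and no window of 3p, 3q proximal or the G3-MB lines reached 1.5. In windows of 2 Mb the distal stretch of UW228 was less even, with medians of 1.34 from 194 to 196 Mb (23 enhancers) and 1.12 from 164 to 166 Mb (1 enhancer). On 3p of UW228, the 17 windows ranged from 0.390 to 1.02. The lowest, from 50 to 55 Mb, rested on 18 enhancers and holds the start of *SEMA3F*.

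A relative input density of 1.5 or more was found at 324 of 853 enhancers on 3q of UW228 (38.0%), against 15.7% of all enhancers of that line. Of these, 288 were among the 394 distal enhancers (73.1%) and 36 among the 459 proximal ones (7.84%). On 3p of UW228, 30 of 596 enhancers (5.03%) reached this value. In the G3-MB lines, the shares on 3q were 8.69% in D425, 7.19% in MB002 and 8.57% in HD-MB03, below the background over all enhancers of 17.7% in D425, 12.5% in MB002 and 11.1% in HD-MB03.

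Among 41 chromosome arms with enough enhancers, 3q of UW228 was the 11th by median relative input density and 3p the 25th. The highest whole arm of UW228 was 6q, with a median of 1.37, below the 1.77 of the distal stretch of 3q. That stretch was delimited by this same input and the other arms were not split, so its place above whole arms follows in part from the choice. In MB002, D425 and HD-MB03, 3q was the 24th, 32nd and 11th of the arms.

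More enhancers were listed per Mb on 3q than on 3p in UW228. MB002 had 902 enhancers on 3p and 1001 on 3q, D425 had 810 and 1013, HD-MB03 had 476 and 502, and UW228 had 596 and 853. Per Mb of arm, the values on 3p and 3q were 6.85 and 8.18 in UW228, 10.4 and 9.60 in MB002, 5.47 and 4.81 in HD-MB03 and 9.31 and 9.71 in D425. UW228 was thus the line in which 3q was the denser arm by the most. Within 3q of UW228, the distal stretch held 9.24 enhancers per Mb and the proximal stretch 7.45. In MB002 and HD-MB03 the distal stretch was also the denser one, with 10.5 against 8.96 per Mb and 5.11 against 4.61 per Mb, whereas D425 had 9.54 against 9.83. A higher density of enhancers beyond this position was therefore not particular to the line with raised input. At the limits of the arms, the last 3p enhancers of the 4 lines ended between 86622219 and 86999227 and the first 3q enhancers started between 94103941 and 95923015.

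The signal of an enhancer is its H3K27Ac value minus its input value, in mapped-read-normalised reads per base pair (rpm/bp) times its length, and is set to 0 where input is higher. Enhancers of 3q held 5.32% of all enhancer signal in UW228, compared with 3.05% in D425, 2.55% in MB002 and 2.23% in HD-MB03. The 3p share was 2.32% in UW228, and 3.36%, 3.03% and 2.71% in MB002, D425 and HD-MB03. The ratio of 3q to 3p signal was 2.295 in UW228 and 0.758, 1.01 and 0.823 in MB002, D425 and HD-MB03. Of the 3q share of UW228, 3.12% came from the distal stretch and 2.203% from the proximal stretch. Per base pair, the median signal of UW228 enhancers was 0.606 rpm/bp on 3p, 0.607 rpm/bp in 3q proximal, 0.867 rpm/bp in 3q distal and 0.6496 rpm/bp over the line. After subtraction of input, the raised level was thus found on the same stretch as the raised input. Before subtraction, the median H3K27Ac value of UW228 was 1.13 rpm/bp in 3q distal and 0.741 rpm/bp in 3q proximal.

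As a next step the signal of chromosome 3 enhancers was divided by the median input of their stretch, an alternative added after the data were seen. Enhancers of other chromosomes were left undivided, so the shares and ranks after it set divided values against undivided ones. The median signal per base pair of UW228 became 0.659 rpm/bp in 3q proximal and 0.490 rpm/bp in 3q distal, which placed the distal stretch below the proximal one. The 3q share of signal became 4.19%. In the G3-MB lines, the distal and proximal medians were 0.504 and 0.528 rpm/bp in MB002, 0.453 and 0.444 rpm/bp in D425 and 0.513 and 0.483 rpm/bp in HD-MB03 before the division. After it they were 0.528 and 0.561 rpm/bp in MB002, 0.505 and 0.512 rpm/bp in D425 and 0.512 and 0.486 rpm/bp in HD-MB03. The order of the stretches thus turned in D425 as well as in UW228, although by far less, and stayed in MB002 and HD-MB03. How much of the signal of 3q distal goes with its input and how much does not was not tested beyond this division.

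**Figure D2:**
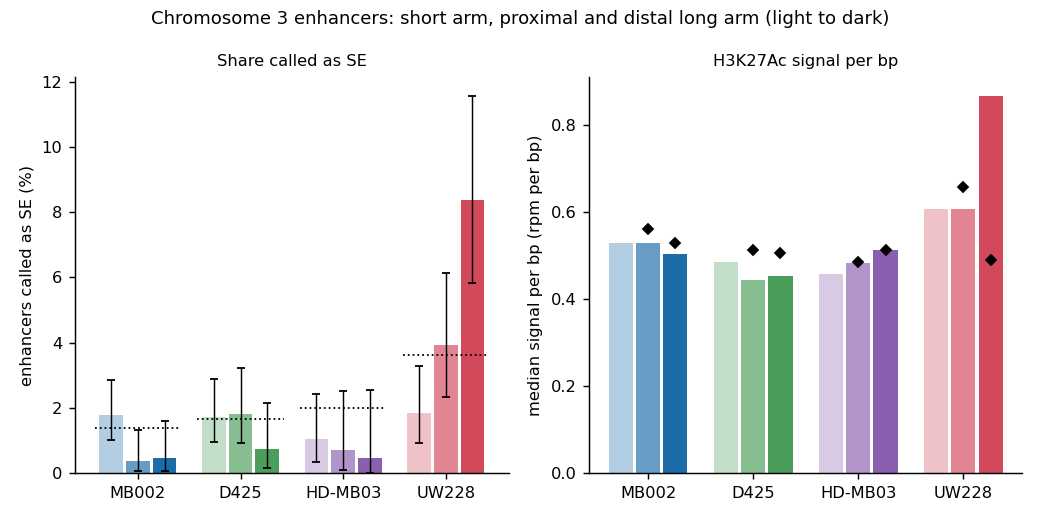
Left, share of enhancers called as SE (y axis, percent) on 3p, 3q proximal and 3q distal (light to dark) in each line, with exact 95% binomial intervals and the share over all enhancers of the line as a dotted line. Right, median signal per base pair (y axis, rpm/bp), with diamonds for the value after division by the input of the stretch. The distal long arm of UW228 is the highest bar of both panels, and its diamond lies below the proximal one.

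SEs were called on 3q more often in UW228 than in the other lines. On 3q, 51 SEs were called in UW228, and 4, 14 and 3 in MB002, D425 and HD-MB03. On 3p, 11 were called in UW228, and 16, 14 and 5 in the other lines in the same order. As called, UW228 was thus the only line with several times more SEs on 3q than on 3p. The share of all enhancers called as SE was 3.61% in UW228, and 1.39%, 1.64% and 1.98% in MB002, D425 and HD-MB03. In UW228, 33 of 394 enhancers of 3q distal were SEs (8.38%, exact 95% Clopper-Pearson interval 5.84% to 11.6%, counting error only), compared with 18 of 459 in 3q proximal (3.92%, interval 2.34% to 6.13%) and 11 of 596 on 3p (1.85%, interval 0.925% to 3.28%). Enhancers of 1 library are not replicates and the distal stretch was delimited by its input, so these intervals are no test of the stretches. After division by the input of the stretch and against the deposited cutoff, 15 of the distal and 22 of the proximal enhancers of UW228 would be SEs, 37 on 3q in all. The same division raised the SEs on 3p of UW228 from 11 to 21, and division by the input of the whole arm gave 39 on 3q and 21 on 3p, so the excess of 3q became much smaller.

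The strongest 3q enhancer of UW228 was an SE of rank 13 in the line, where 1 is the strongest, at chr3:177744509-177838724. It overlapped the long noncoding RNA genes *LINC00578* and *LINC02015* and no protein-coding gene. Its H3K27Ac value was 161984 and its input value 27869, with a relative input density of 1.92, and its signal per base pair was 1.42 rpm/bp. The 6 overlapping enhancers of the G3-MB lines, none an SE, had 0.248 rpm/bp in D425, 0.291 rpm/bp in MB002 and 0.257 rpm/bp in HD-MB03. A further SE of *LINC00578*, at chr3:177441618-177498999, had rank 110 and a relative input density of 2.03.

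The next 3q enhancer, of rank 14, covered the 3′ end of *TPRG1*, a gene named for its regulation by p63, at chr3:189267111-189328467. Its signal was 127946 at 2.09 rpm/bp and its relative input density was 2.36, and no G3-MB line had an enhancer there. A pair of SEs lay at *P3H2*, which encodes a prolyl hydroxylase of collagens. The SE of rank 24 lay inside the gene at chr3:189980789-190118761, with 0.801 rpm/bp and a relative input density of 2.02, and that of rank 94 reached over its 3′ end at chr3:189907139-189967890, with 1.16 rpm/bp and 1.97. At the first of these, the G3-MB lines had enhancers of 0.283, 0.280 and 0.143 rpm/bp in MB002, D425 and HD-MB03, the best at rank 2521.

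The other strong 3q loci of UW228 included some with no raised input. An SE of rank 35 at chr3:170679582-170754936, on the noncoding *SLC7A14-AS1*, had a relative input density of 1.78. *WWTR1*, which encodes the Hippo pathway co-activator TAZ, had an SE of rank 46 at chr3:149506636-149626041 with a relative input density of 1.01. *BDH1*, an enzyme of ketone body metabolism, had an SE of rank 48 at chr3:197453053-197521273, near the telomere, with 1.20. The gene *MYLK*, which encodes myosin light chain kinase, had SEs of rank 73 (chr3:123599915-123697117) and 83 (chr3:123722680-123844264), with relative input densities of 0.748 and 0.849. Thus 6 of these 10 loci had a relative input density above 1.5 and all 6 lay in 3q distal, while the 3 loci of 3q proximal had values of 0.748 to 1.01.

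Dividing by the input of the stretch, on chromosome 3 alone, changed the order of these loci. Their ranks after it were counted among undivided enhancers of the other chromosomes. The SE at *LINC02015* moved from rank 13 to 75, that at *TPRG1* from 14 to 83 and that inside *P3H2* from 24 to 115. The loci of 3q proximal moved the other way, *WWTR1* from 46 to 35 and the *MYLK* SEs from 73 to 57 and from 83 to 64. After the division, *WWTR1* was the first of the 10 loci and was followed by the *MYLK* SEs. Dividing by the input of the whole arm kept the order of the 10 and gave ranks of 20 at *LINC02015* and 23 at *TPRG1*. Dividing each enhancer by its own input put the *MYLK* SE of rank 73 first, at 31, and *WWTR1* second, at 46, while *LINC02015* moved to 99, *TPRG1* to 188 and the SE inside *P3H2* to 184. By signal per base pair among enhancers of at least 1000 bp, *TPRG1* was the highest of the 10 at rank 363, *LINC02015* had rank 1524 and the SE inside *P3H2* rank 6186. The 3 SEs of 3q with the highest relative input density in UW228 were an intergenic one at chr3:177901918-177907971 (2.58, rank 508, whose middle is the sequence given above), that at *TPRG1* (2.36) and one at *VEPH1* (2.31, rank 528).

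Around *TP63* (chr3:189631389-189897276, plus strand), enhancers were listed in every line and SEs were called in UW228 alone. Within 500 kb of its start, UW228 had 16 enhancers, of which 8 were SEs, and these 16 covered 470504 bp and held 9.54% of the 3q signal of the line. MB002 had 14 enhancers over 78238 bp, D425 had 12 over 31604 bp and HD-MB03 had 6 over 22296 bp, and they held 0.906%, 0.519% and 0.432% of the 3q signal. The mean signal was 1.13 rpm/bp in UW228, and 0.280, 0.400 and 0.210 rpm/bp in MB002, D425 and HD-MB03. All 16 enhancers of UW228 had raised input, with relative densities of 1.62 to 3.65 and a median of 2.01, while the medians of the G3-MB lines were 0.928, 1.09 and 0.970.

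The best enhancer of *TP63* itself in UW228 was an SE of rank 249 inside the gene at chr3:189754243-189798088, with a signal of 43608. In MB002, D425 and HD-MB03 the best ones had ranks 8601, 4316 and 12357 and signals of 1944, 4392 and 201. The enhancer over the promoter printed above (chr3:189621907-189635552) was a typical one in UW228, with 0.939 rpm/bp and a relative input density of 2.05. SEs lay on both sides of it, from 364 kb before the start of *TP63* to 487 kb after it.

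**Figure D3:**
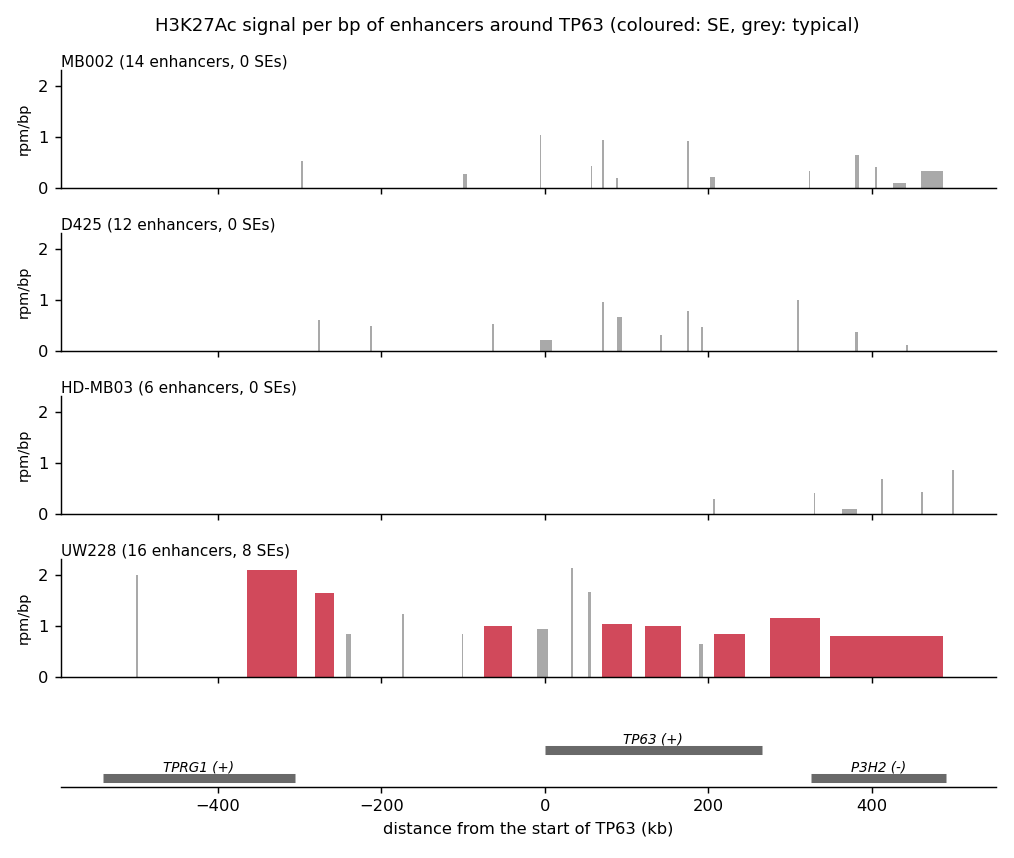
Signal per base pair of each enhancer (y axis, rpm/bp; bar width is the length of the enhancer) against the distance in kb from the start of TP63 (x axis), with genes drawn below and their strand in parentheses. SEs are coloured and typical enhancers grey. UW228 has 8 SEs in this stretch and the G3-MB lines have none.

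The strongest chromosome 3 enhancer of each G3-MB line lay on 3p. The SE at *SEMA3F*, which encodes a secreted axon guidance factor, covered the start of the gene in MB002 and HD-MB03 and ended short of it in D425. It had rank 30 in D425, 18 in MB002 and 9 in HD-MB03, with 2.70, 3.45 and 1.77 rpm/bp. In UW228, the enhancer of *SEMA3F* was a typical one of rank 1162, and its relative input density was 0.350. *TRAK1*, an adaptor of mitochondrial transport, had SEs of rank 57 in D425 and 12 in HD-MB03, and the enhancer that overlapped them in MB002 was an SE of rank 220, whereas that of UW228 had rank 863 and was a typical one. MB002 had SEs inside *ATXN7* (rank 32), a subunit of a histone acetyltransferase complex, and over *ABHD14A* and *PCBP4* (rank 36). HD-MB03 had an SE at the start of *SETD5* (rank 184). The strongest 3p enhancers of UW228 were SEs at *ATG7* and *VGLL4* (rank 57), *ZNF385D* (rank 125) and *HRH1* (rank 145), with relative input densities of 0.696 to 0.867.

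On 3q, the strongest enhancers of MB002 were SEs at *RIOX2* and *CRYBG3* (rank 71), *FGF12* (rank 122) and *TBC1D23* (rank 210). Those of D425 lay at *AMOTL2* (rank 35), a scaffold protein of the angiomotin family, *PDIA5* (rank 92) and *HES1* (rank 100), the Notch target that holds back neuronal differentiation. HD-MB03 had SEs at *MGLL* (rank 93), *IMPG2* (rank 186) and *HES1* (rank 294). All 9 had relative input densities between 0.903 and 1.29. *HES1* was the gene that the strongest 3q SEs of a pair of G3-MB lines shared, and its best enhancers had rank 3024 in MB002 and 2150 in UW228.

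In D425 the strongest chromosome 3 enhancer had rank 12 and lay inside *VGLL3*, which encodes a cofactor of the TEAD factors, at chr3:86948099-86975258. It was 1 unbroken peak with 5.09 rpm/bp and a relative input density of 0.626. It was part of a run of 179 neighbouring enhancers within 0.426 Mb that had been left apart although each lay less than 12.5 kb from the next. Of these, 25 lay on 3p and 154 past the limit of the short arm. Their summed signal was 360798, and as 1 enhancer they would have rank 3 in the line. The 25 on 3p held 9.74% of the 3p signal of D425, and without the run D425 had 12 SEs on 3p and a 3q to 3p signal ratio of 1.12. Over the same stretch MB002 and HD-MB03 each had 1 enhancer and UW228 had 3, none of them an SE. Shorter runs of 3 to 14 enhancers left apart in the same way were found in the other lines. That of MB002 with its SE of rank 36 held 5 enhancers and would have rank 31 as 1 enhancer, and one of UW228 in 3q distal with an SE of rank 634 held 5 and would have rank 312. Why these enhancers were not joined was not tested. The run of D425 was singled out after its values were seen.

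Enhancers of UW228 that overlapped no enhancer of any G3-MB line were as frequent on chromosome 3 as elsewhere. They made up 56.2% of 3p, 61.7% of 3q proximal and 55.3% of 3q distal, against 57.5% of all UW228 enhancers. Enhancers listed in all 4 lines numbered 61 on 3p and 87 on 3q. At these, the median log2 ratio of UW228 signal per base pair to the median of the G3-MB lines was 0.09 on 3p, -0.07 in 3q proximal and 0.49 in 3q distal, and it was 0.07 at the 1988 such enhancers on other chromosomes. In 3q distal, 27 of 39 ratios were above 0, compared with 23 of 48 in 3q proximal, 35 of 61 on 3p and 1036 of 1988 on other chromosomes. The distal median depended on the line compared, as it was 0.64 over MB002 and 0.57 over D425 but 0.24 over HD-MB03. The quartiles overlapped, -0.17 and 1.31 in 3q distal and -0.85 and 0.84 in 3q proximal.

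**Figure D4:**
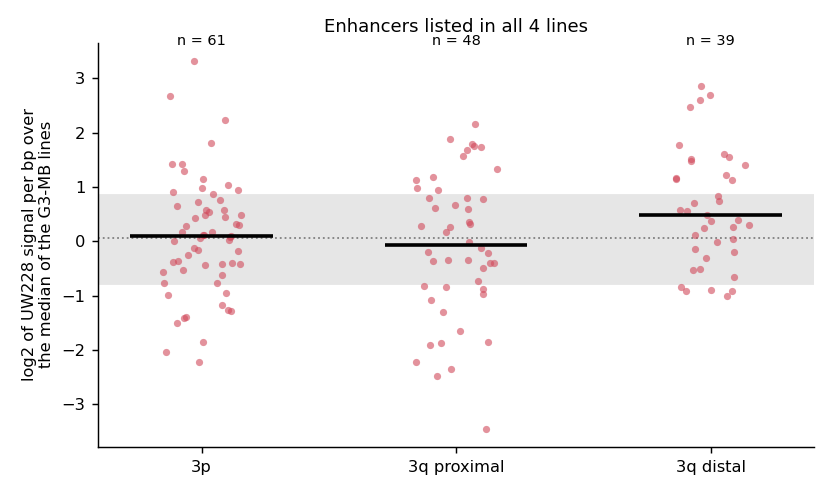
Log2 ratio of UW228 signal per base pair to the median of the 3 G3-MB lines (y axis) at enhancers listed in all 4 lines, on 3p (61), 3q proximal (48) and 3q distal (39). Points are enhancers and bars medians, and the grey band and dotted line are the quartiles and median of the 1988 such enhancers on other chromosomes. The distal points lie higher, with a median of 0.49, and overlap the others.

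Of the 39 enhancers of 3q distal listed in all lines, 7 (17.9%) had at least 2 times the signal per base pair of the highest G3-MB line in UW228, against 6.46% of all such enhancers. There were 1 of 48 in 3q proximal (2.08%), inside *TMCC1*, and 4 of 61 on 3p (6.56%). The 8 on 3q fell to 5 when signals were scaled by the median of the line, with 3 on 3p, and to 5 when they were divided by arm input, with 5 on 3p. The distal ones were 3 near *LINC00578* and *LINC02015*, that inside *P3H2*, that at *BDH1*, the *ST6GAL1* peak printed above and one inside *RNF168*, a ubiquitin ligase of the DNA damage response. The *ST6GAL1* peak, in the gene of a sialyltransferase, had 3.50 rpm/bp in UW228 and 0.716, 0.331 and 0.574 rpm/bp in MB002, D425 and HD-MB03. Its relative input density was 1.67, and those of the others were 1.20 to 1.92 except for *P3H2*, at 2.02.

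Genes of chromosome 3 were grouped by lists, and the best enhancer of a gene was the highest ranked that overlapped its body or lay within 50 kb of its start. Of 1043 protein-coding genes of the chromosome, 4.99% had an SE in UW228, and 3.36%, 4.12% and 1.53% in MB002, D425 and HD-MB03. The lists were chosen with earlier results of these data known, so their counts describe the lists.

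In the list of epithelial and squamous genes, which held 16 genes of 3q, 4 had an SE in UW228, 1 in D425 and none in MB002 or HD-MB03. Over all protein-coding genes of 3q, 6.69% had an SE in UW228, 3.797% in D425 and 0.904% in MB002 as in HD-MB03. The 4 were *TPRG1* (rank 14), *LPP* (rank 136), which encodes a LIM protein of cell adhesions, *TP63* (rank 249) and *IL1RAP* (rank 600), a subunit of the interleukin 1 receptor. All 4 lay in 3q distal with relative input densities of 2.04 to 2.36. The SE of D425 was at *CLDN1* (rank 337), a tight junction protein, whose best enhancer in UW228 had rank 1770. *SOX2*, a stem cell factor of the same gained region in carcinomas, had typical enhancers in MB002 (rank 4173) and UW228 (rank 1534). *PIK3CA*, a kinase of growth factor signalling, had best ranks of 20944 in MB002 and 11575 in UW228, and *DCUN1D1* had 11982 in UW228 despite a relative input density of 2.44.

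In the list of mesenchymal, matrix and YAP or TGF-beta response genes, 7 of 23 had an SE in UW228, 4 in D425, 1 in MB002 and none in HD-MB03. Over all protein-coding genes of the chromosome, the shares were 4.99%, 4.12%, 3.36% and 1.53% in the same order. Those of UW228 in 3q proximal were *COL8A1* (rank 179), a short chain collagen, *PLOD2* (rank 579), a lysyl hydroxylase, *AMOTL2* (rank 590) and *MYLK* (rank 73), with relative input densities of 0.714 to 0.942. Those in 3q distal were *FNDC3B* (rank 128), *TNFSF10* (rank 629), the death ligand TRAIL, and *P3H2* (rank 24), with 1.86 to 2.02. SEs at 4 of these 7 genes were thus called on a stretch with no raised input. In D425, *AMOTL2* (rank 35) and *MYLK* (rank 359) also had SEs, beside *TM4SF1* (rank 250) and *PXYLP1* (rank 296). D425 and UW228 were the lines grown in serum, but medium cannot be told apart from other differences between the lines and its part was not tested.

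**Figure D5:**
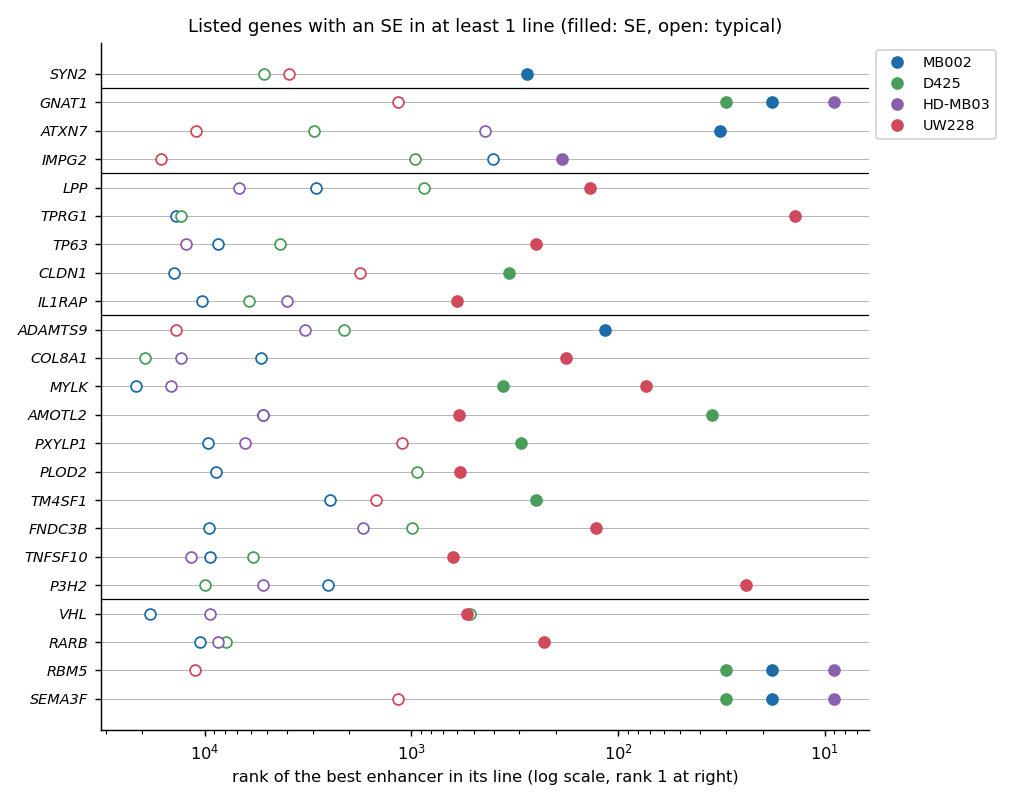
Rank of the best enhancer (x axis, log scale, strongest at right) for the genes of the lists with an SE in at least 1 line, with filled points for SEs and open points for typical enhancers. From top to bottom the groups are neural, photoreceptor, epithelial and squamous, mesenchymal and matrix, and 3p tumour suppressor genes. UW228 leads at most epithelial and mesenchymal genes and trails at the photoreceptor genes.

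Photoreceptor genes stood the other way. Of 7 genes of the list, none had an SE in UW228, and 2, 1 and 2 had one in MB002, D425 and HD-MB03. *IMPG2*, a proteoglycan of the matrix around photoreceptors, had ranks 16274 in UW228 and 402, 960 and 186 in MB002, D425 and HD-MB03, with signals of 409, 31063, 16171 and 29153. *GNAT1*, the rod transducin, took its SE from the *SEMA3F* enhancer, which lies within 50 kb of its start, so it adds no separate locus.

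Of 22 neural and cerebellar genes, 1 had an SE, *SYN2* (rank 277 in MB002), which encodes a synaptic vesicle protein. Enhancers were listed for 11 of the 22 in UW228 (50%) and for 21, 17 and 12 in MB002, D425 and HD-MB03 (95.5%, 77.3% and 54.5%). Over all protein-coding genes of the chromosome the shares were 65.6% in UW228 and 79.8%, 78.1% and 59.9% in the others, so D425 and HD-MB03 were near their background. The genes of the list went both ways. *ZIC1* and *ZIC4*, neighbouring genes of cerebellar development that share their best enhancer, had rank 11036 in UW228 and ranks 2533, 2948 and 1985 in MB002, D425 and HD-MB03. *ZBTB20*, which encodes a zinc finger repressor, had rank 1288 in UW228 and ranks 12361, 3057 and 8872 in the others. Since the lines list different numbers of enhancers, ranks are only roughly comparable, and the median best rank of the genes with an enhancer stood at 24.9% of the list in UW228 and at 20.8%, 26.02% and 38.8% in the others. Of 13 tumour suppressor genes of 3p, 2 had an SE in each line. They were *SEMA3F* and *RBM5* in the G3-MB lines, through the same enhancer, and *RARB* (rank 228) and *VHL* (rank 541), a subunit of the ligase that degrades HIF proteins, in UW228.

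Enhancers of UW228 on both arms held more AP-1 motifs than those of the G3-MB lines. AP-1 motifs numbered 0.472 per kb on 3p and 0.438 per kb on 3q in UW228, compared with 0.313 to 0.366 per kb on either arm in the other lines. In the middle 300 bases of enhancers made of 1 peak, 160 of 672 in UW228 (23.8%) held the AP-1 motif, against 11.01% of 436 in D425, 10.98% of 656 in MB002 and 12.4% of 541 in HD-MB03. Within UW228, the shares were 25.1% on 3p, 21.1% in 3q proximal and 25% in 3q distal, with overlapping exact 95% intervals of 20.1% to 30.6%, 15.7% to 27.2% and 18.9% to 32.0%. The OTX and CRX motif was held by 18.5% of these stretches in UW228 and by 24.8%, 22.2% and 20.7% in MB002, D425 and HD-MB03. The interval of UW228, 15.59% to 21.60%, overlapped that of each G3-MB line, though that of MB002 (21.58% to 28.34%) only at its edge. Per kb, UW228 had more of this motif than HD-MB03, 0.812 against 0.722 on 3p and 0.744 against 0.635 on 3q. Over all enhancers of the genome, AP-1 motifs numbered 0.448 per kb in UW228 and 0.340, 0.340 and 0.312 per kb in MB002, D425 and HD-MB03, so the values of chromosome 3 were close to those of each whole line. Base composition differed between lines, with a GC content over all enhancers of 48.5% in HD-MB03, 45.0% in D425, 43.9% in MB002 and 42.6% in UW228, and its part in the motif counts was not tested. Within UW228 it was 42.8% on 3p, 40.9% in 3q proximal and 41.0% in 3q distal.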

How the data were processed

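Human MB lines were profiled with 1 H3K27Ac and 1 input library each. The authors aligned paired-end reads to GRCh38 with Bowtie 2 (2.3.0), converted them with SAMtools (1.9), removed multi-mappers and duplicates, called peaks with MACS2 (2.2.6) and joined peaks into ranked enhancers by ROSE, with 12 kb in the headers and 12.5 kb in the methods. The deposited H3K27Ac and input signal is in rpm/bp times the length, with input not subtracted, and the deposited score is the rank of the enhancer (1 is the highest). A further deposited column gives the SE call. The enhancers ordered by signal minus input had the deposited ranks in all 4 lines. Library depth is not given in the sources used here, and intervals over enhancers cover counting error only.

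Here, length was end minus start. The step in input was the single least-squares split of log2 relative input density with at least 30 enhancers on each side, and whole arms were compared where they held at least 20 enhancers. Enhancers were shared where they overlapped by at least 1 bp. Genes were the named ones of GENCODE 44, with a window of 50 kb. Motifs were counted on both strands, with a motif equal to its own reverse complement counted once and overlaps between different motifs allowed. Values were computed with pandas 2.3.3, numpy 2.4.6 and scipy 1.17.1 in Python 3.11.15 and drawn with matplotlib 3.10.9. The split and the overlaps were tested on simulated data.

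The genes named were those of the lists, those at the 10 strongest 3q loci of UW228, at the 3 strongest loci of each arm and line, at the 3 SEs of 3q with the highest input in UW228 and at the enhancers past the 2-fold rule. Members and lists were chosen with earlier results of these data known. One gene of the epithelial list did not lie on chromosome 3 and was left out. The alternatives were a divisor from autosomes other than chromosome 3, enhancers with input 0 left out, length weighting, constituent peaks, a minimum of 1000 bp, the 15000 strongest enhancers of each line, H3K27Ac without input subtraction, division of the signal by arm input, own input or input of the stretch, signal per base pair for the ranks, the 500 strongest enhancers as SEs, an overlap of 50%, scaling by the median of the line and protein-coding genes only for the closest gene.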

Additional observations from a re-analysis of the deposited data

Results flagged for a closer look

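Enhancers of chromosome 3 between the arm limits belong to no comparison above, and they numbered 190 in D425, 22 in MB002, 6 in HD-MB03 and 27 in UW228. Those of D425 stood at 27.1 per Mb with a median length of 479 bp and a median relative input density of 0.713, and 88.9% were made of 1 peak. Of the 190, 154 belonged to the run at *VGLL3* described above. None of the enhancers between the limits was an SE in any line.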

How the results depend on the processing

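Of 185 alternative values, 106 stayed within the margin set for them and 79 moved, among them 28 of the ranks of the 10 strongest 3q loci of UW228. Weighting by length gave median relative input densities of 0.815, 0.844, 0.773 and 0.834 on 3p and 0.792, 0.826, 0.754 and 1.27 on 3q of MB002, D425, HD-MB03 and UW228, which turned the order of the arms in HD-MB03. With a minimum of 1000 bp, HD-MB03 had 0.989 on 3p and 0.976 on 3q, which also turned it. Counting constituent peaks gave 2270, 2285, 940 and 1390 on 3p and 2297, 2895, 881 and 2226 on 3q, so that 3p had the higher count in HD-MB03. Over the 15000 strongest enhancers, MB002 had 507 on 3p and 554 on 3q, and D425 438 and 559. Enhancers of at least 1000 bp numbered 551 and 593 in MB002, 448 and 562 in D425 and 274 and 284 in HD-MB03. Dividing the signal by the median input of the arm gave shares of 3.45% on 3p and 3.51% on 3q in D425 and 2.73% and 4.57% in UW228, and by the enhancer's own input 3.82% and 3.14% in MB002, 3.47% and 3.699% in D425 and 2.85% and 4.17% in UW228. Dividing by the input of the stretch on chromosome 3 alone, added after the data were seen, gave 3.35% and 3.45% in D425 and 2.70% and 4.19% in UW228. Either division, by arm or by stretch, gave 21 SEs on 3p of UW228, where the median input was below 1. Taking the 500 strongest enhancers as SEs gave 8 on 3q of MB002 and 10 on 3p and 8 on 3q of HD-MB03. An overlap of 50% gave 73.3% of 3p and 76.8% of 3q enhancers of UW228 with no G3-MB enhancer. Scaling by the median of the line, and dividing by arm input, each left 5 enhancers of 3q past the 2-fold rule. With protein-coding genes only, 11 of 31 named enhancers kept their closest gene. Where a value moved, the cause was not tested. No paired analysis was possible because each line had 1 library of each kind and no test was made. Library depth is unknown, and with single libraries no difference between lines has an error.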
